A study of Drosophila melanogaster with 2 samples.

Results

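The mitochondrial ribosomal protein genes of Drosophila melanogaster were taken as the protein-coding genes whose symbol begins with mRpL or mRpS and a number. This rule gave 73 of 13945 protein-coding genes on the 6 chromosome arms 2L, 2R, 3L, 3R, 4 and X. Of these, 47 are named for the large (mRpL) and 26 for the small (mRpS) subunit. The data are chromatin immunoprecipitation with sequencing (ChIP-seq) with an antibody against GFP on sonicated chromatin of whole adult flies, males and females together. All samples came from 1 transgenic line in which CG11617, a homeobox gene, is expressed with GFP fused at the C terminus. There was 1 group with 2 biological replicates, numbered 2 and 3 in the labels, and no control sample was analysed here. Chromatin of whole animals mixes all adult cell types, so binding in a few cells and weak binding in many cannot be told apart.

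The mitochondrial ribosome translates the few messages encoded by mitochondrial DNA, which specify subunits of the oxidative phosphorylation complexes. Its RNAs are made in the organelle, whereas its proteins are encoded in the nucleus, made in the cytosol and imported. Some of these proteins descend from those of the bacterial ribosome, such as mRpS2, mRpS7, mRpS10, mRpL2, mRpL3, mRpL10 and mRpL12, and others have no bacterial counterpart, such as mRpS22, mRpS29 and mRpL41. Many compact fly genes start back to back with a neighbour on the opposite strand, so that both start sites lie in 1 short stretch of DNA, a divergent promoter. Homeobox proteins are transcription factors that contact DNA through a homeodomain, whose preferred sites are short and rich in A and T.

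For each gene the strongest peak was read from the authors' lists, where each entry carries a signal, the authors' measure of enrichment, and a summit, the base of highest enrichment. The authors' optimal list, which keeps peaks that rank alike in both replicates by their irreproducible discovery rate (IDR), held 5777 entries with signals of 163 to 5197 and a median of 263. A gene is counted as having an IDR summit where a summit of this list lay within 500 bp of one of its transcription start sites (TSSs). The candidate lists of each replicate and of the pooled replicates held 30000 entries each. Signals are not scaled between these lists, replicate 3 values stand above replicate 2 values at most genes, and read depth is unknown.

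The sequences under 7 of the 9 strongest summits show what DNA was recovered at these genes. Those of mRpL41 and mRpL23, ranked 2 and 3 by signal among the 73 genes, are not shown, and neither holds the motif marked here. The sequences were read from the Release 6 (dm6) genome, are written 5′ to 3′ on the sense strand of the mitochondrial ribosomal protein gene, and have the letters TAACA, or TGTTA where the motif lies on the other strand, in capitals. TAACA was searched because homeodomains of the Iroquois type are known to prefer it. The first is the whole stretch between the start sites of Art3 and mRpS10, chr3R:15229408-15229665, plus strand, which held the strongest peak of all 73 genes. It runs from the Art3 start site at its first base to the mRpS10 start site at its last, and the summit is at base 112, a few bases before the TAACA.
Art3 to mRpS10: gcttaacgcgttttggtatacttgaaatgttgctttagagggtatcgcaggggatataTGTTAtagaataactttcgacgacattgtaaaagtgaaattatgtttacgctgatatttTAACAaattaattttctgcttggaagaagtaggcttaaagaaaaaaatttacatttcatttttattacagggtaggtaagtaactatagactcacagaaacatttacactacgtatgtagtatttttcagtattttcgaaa
The next 6 are the summits with 50 bp on either side at mRpS23 (chr2L:13835426-13835526, minus strand), mRpL24 (chr2L:4945448-4945548, minus strand), mRpS2 (chr2L:4850511-4850611, minus strand), mRpL20 (chr3L:13018072-13018172, minus strand), mRpL2 (chr3L:11120500-11120600, plus strand) and mRpL10 (chr2L:203629-203729, plus strand). None of these windows overlaps an annotated exon, and the first 4 hold a TAACA while those of mRpL2 and mRpL10 do not.
mRpS23: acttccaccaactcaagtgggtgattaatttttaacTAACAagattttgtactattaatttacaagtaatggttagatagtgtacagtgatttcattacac
mRpL24: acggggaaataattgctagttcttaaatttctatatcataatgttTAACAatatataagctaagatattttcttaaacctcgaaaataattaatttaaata
mRpS2: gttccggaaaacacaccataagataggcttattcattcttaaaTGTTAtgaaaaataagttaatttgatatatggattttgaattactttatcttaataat
mRpL20: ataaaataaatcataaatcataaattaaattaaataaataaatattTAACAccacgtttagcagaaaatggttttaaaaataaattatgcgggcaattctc
mRpL2: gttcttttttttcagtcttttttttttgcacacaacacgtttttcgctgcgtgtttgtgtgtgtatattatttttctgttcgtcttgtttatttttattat
mRpL10: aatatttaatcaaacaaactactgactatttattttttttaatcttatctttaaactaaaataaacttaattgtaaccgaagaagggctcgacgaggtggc
For contrast, 2 genes without an IDR summit are shown by the 100 bp before their start site and its first base. They are mRpL12 (chr3L:8956691-8956791, plus strand), whose product pairs with that of mRpL10 in the stalk of the ribosome, and mRpS34 (chr3L:16347974-16348074, plus strand), which had no pooled entry.
mRpL12: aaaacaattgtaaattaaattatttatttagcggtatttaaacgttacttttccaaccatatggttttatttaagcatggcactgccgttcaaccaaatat
mRpS34: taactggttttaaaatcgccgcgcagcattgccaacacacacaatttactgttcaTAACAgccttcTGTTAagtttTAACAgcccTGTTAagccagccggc
The mRpS34 stretch holds the motif 4 times and the mRpL12 stretch does not hold it.

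Peaks were found at 46 of the 73 genes, 63.0% with a Wilson 95% interval of 51.5 to 73.2% that covers counting error only. The background is 30.0% of all protein-coding genes with an IDR summit by the same rule. It is not matched for promoter arrangement, since 72.6% of the 73 genes but 27.4% of all genes have a divergent neighbour. Over all genes the share was 59.4% with and 18.9% without such a neighbour, and the family is set against these below. Every one of the 46 genes had its own summit, since no 2 of them shared one. The signals at the 46 genes ranged from 163 to 1854 with a median of 339, and the median over all genes with an IDR summit was 309. In the top 10% of the IDR list by signal lay the summits of 7 of the 46 genes (15.2%), a share close to the 14.4% of all genes with a summit. By contrast, the 86 genes for cytosolic ribosomal proteins, the parallel gene family for the other ribosome of the cell, had a median signal of 635, and 35 of their 77 summits (45.5%) were in that top 10%.

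**Figure D1:**
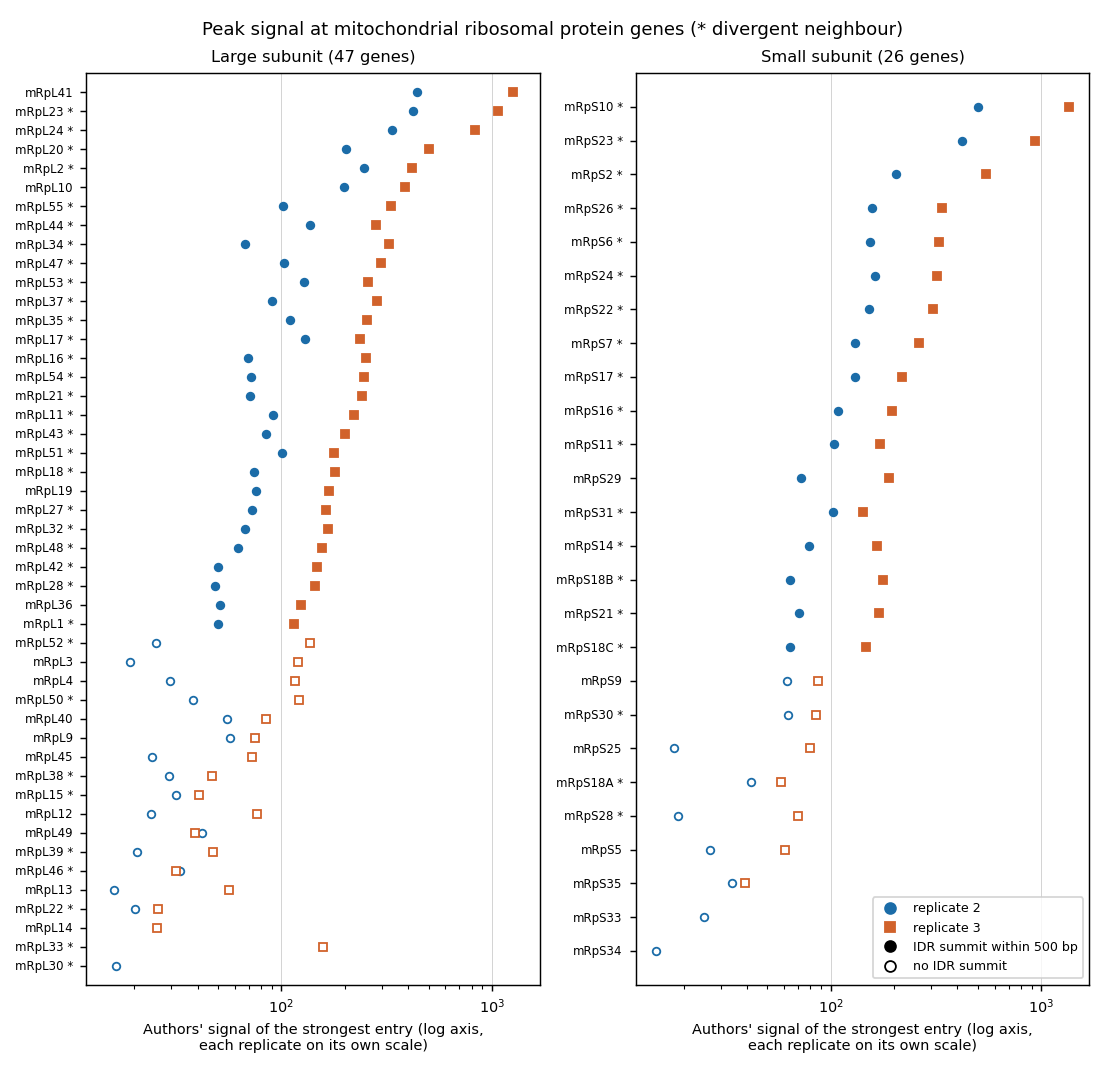
Signal of the strongest entry within 500 bp of a TSS for each of the 73 genes, on a log axis, with large subunit genes on the left and small subunit genes on the right, ordered by signal. Circles are replicate 2 and squares replicate 3, each on its own scale, filled symbols mark the 46 genes with an IDR summit, and an asterisk marks a divergent neighbour. In both subunits a few genes stand far to the right of the rest, and the filled symbols grade into the open ones without a gap.

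Among large subunit genes the highest signals were at mRpL41, mRpL23, mRpL24 and mRpL20. mRpL41, which encodes a subunit with no bacterial counterpart, had a signal of 441 in replicate 2, 1255 in replicate 3 and 1698 in the IDR list, where it ranked 58 of 5777. mRpL23 had 423 in replicate 2, 1063 in replicate 3 and 1483 in the IDR list, and mRpL24 had 337, 833 and 1169 in the same order. Both encode counterparts of bacterial proteins at the exit of the tunnel through which the new chain leaves the ribosome. mRpL20 had 202 in replicate 2, 505 in replicate 3 and 706 in the IDR list, and mRpL2, whose bacterial counterpart lies near the peptidyl transferase centre, had 247, 417 and 666. Each of these 5 genes was above the median signal of 263 of the IDR list, and their order was the same in both replicates except that mRpL2 stood above mRpL20 in replicate 2.

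The genes for other proteins around the tunnel exit did not share the level of mRpL23 and mRpL24. mRpL47 had an IDR signal of 389, mRpL17 of 363 and mRpL32 of 226. mRpL22 and mRpL45 had no IDR summit, with pooled signals of 42.9 and 88.7. In the stalk that recruits translation factors, mRpL10 had 198 in replicate 2, 388 in replicate 3 and 596 in the IDR list, and mRpL11, at the base of the stalk, had 91.3, 222 and 310. mRpL12, the stalk protein itself, had 23.9 in replicate 2, 76.1 in replicate 3 and 81.9 in the pooled list, below the lowest signal of the IDR list. Its replicate 2 entry was at another place, with the summit 418 bp downstream of the start site. The summits in replicate 3 and the pooled list lay 22 and 7 bp upstream. Genes for neighbouring proteins of the ribosome thus had signals on both sides of the IDR limit, in the stalk as at the tunnel exit. mRpL1, of the mobile arm on the other side, had 163.3, the lowest signal of any gene of the family in the IDR list.

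The large subunit genes for other counterparts of bacterial core proteins were divided as well. mRpL16 had an IDR signal of 331, mRpL21 of 313 and mRpL27 of 238. mRpL3 and mRpL4, whose bacterial counterparts bind early in assembly, had pooled signals of 153 and 149 and no IDR summit. mRpL13, mRpL14 and mRpL15 had pooled signals of 61.3, 42.4 and 86.2, all without an IDR summit. Among large subunit genes without a bacterial counterpart, mRpL44, which encodes a protein with an RNase III fold, had 420, and mRpL53 had 384. mRpL55 had 434.

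Among small subunit genes the peak at mRpS10 was the strongest of the family. It had a signal of 503 in replicate 2 and 1351 in replicate 3, and with 1854 in the IDR list it ranked 42 of 5777. mRpS10 encodes a protein of the head of the small subunit. mRpS23 followed with 420 in replicate 2, 929 in replicate 3 and 1355 in the IDR list, then mRpS2 with 205, 549 and 750. Below these 3 the values dropped and lay close together. mRpS26 had 156 in replicate 2, 337 in replicate 3 and 485 in the IDR list, mRpS6 had 153, 325 and 479, and mRpS24 had 162, 320 and 478. mRpS22 had 452 in the IDR list and mRpS7, another protein of the head, had 398. mRpS29, whose human counterpart DAP3 is a GTP-binding protein also linked to cell death, had 71.9 in replicate 2, 189 in replicate 3 and 259 in the IDR list.

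Genes of both subunits carried peaks at more than the 30.0% of all protein-coding genes, a background not matched for promoter arrangement. A divergent neighbour was annotated for 72.3% of large and 73.1% of small subunit genes, against 27.4% of all genes. An IDR summit was found at 29 of 47 large subunit genes (61.7%, Wilson 95% interval 47.4 to 74.2%) and at 17 of 26 small subunit genes (65.4%, 46.2 to 80.6%). The difference, large minus small, was -3.68 percentage points, with an interval of -24.5 to 19.2 (Newcombe 95%, counting error only), and its sign turned under several other settings. The median signal was 331 over the 29 large and 346 over the 17 small subunit genes. Their 95% intervals from order statistics, 255 to 399 and 246 to 479, overlap. These intervals reflect spread over genes only, not error between replicates. Of the 45 genes classed as having a bacterial counterpart 31 had an IDR summit (68.9%), and of the 28 others 15 did (53.6%). Their median signals were 331 and 376. The class was set mainly by the number in the symbol, so it can misplace single genes, such as mRpL55 among the 28. mRpS30 and mRpS18A, whose mammalian counterparts sit in the large subunit, both had no IDR summit. mRpS18A had 41.9 in replicate 2, 58.1 in replicate 3 and 96.9 in the pooled list, and mRpS30 had 150 in the pooled list.

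Most of the 27 genes without an IDR summit had a weaker entry in the pooled list. A pooled entry lay within 500 bp of a TSS at 70 of the 73 genes, against 61.6% of all protein-coding genes. For 24 genes this entry was not in the IDR list, and its signal ranged from 42.4 to 157 with a median of 86.5. The highest of these were mRpL52 with 25.5 in replicate 2, 137 in replicate 3 and 157.1 in the pooled list, mRpS9 with 61.9, 87.5 and 154.8, mRpL3 with 19.1, 120 and 152.9, and mRpS30 with 63.0, 85.3 and 150.2. At mRpL3 the replicate 2 entry had its summit 274 bp upstream, and the entries of replicate 3 and the pooled list had theirs 406 bp upstream. On the other side of the limit stood mRpL36 with 51.0 in replicate 2, 124 in replicate 3 and 167.0 in the IDR list, and mRpL1 with 50.1, 115 and 163.3. mRpL1 and mRpL52 thus differ by a few units of signal, and the count of 46 depends on where the authors' filter falls.

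Only 3 genes had no pooled entry within the window, and each had an entry in 1 replicate. mRpL30 had a signal of 16.4 in replicate 2 and mRpS34 had 14.8 in replicate 2, both below that list's median of 24.0. mRpL33, for a small protein whose bacterial counterpart sits near the tRNA exit site, had 158 in replicate 3, with its summit 490 bp upstream of the start site. That entry was above the replicate 3 median of 46.5, but the nearest pooled summit was 596 bp away and so outside the window.

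The IDR filter chose these peaks for agreement between the replicates, so the spread that follows describes that agreement. Over all genes with an IDR summit, replicate 3 signal exceeded replicate 2 signal by a median of 1.19 on the log2 scale, and the ratios had an SD of 0.40 about this shift. Over the 46 genes the departures from the shift ran from -0.71 to 1.08 with an SD of 0.34. The lowest were mRpS31 with 102 in replicate 2 and 143 in replicate 3, mRpS11 with 104 and 172, and mRpS17 with 131 and 218. The highest were mRpL34 with 67.1 in replicate 2 and 323 in replicate 3, mRpL16 with 69.4 and 252, and mRpL54 with 71.8 and 247. These 6 genes show how far the replicates disagreed within the family, and close neighbours in the order of signals are not resolved. Replicate summits lay a median of 37.5 bp apart and within 50 bp of each other at 31 of the 46 genes, and the largest distance was 191 bp at mRpL36.

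Most of these genes start back to back with another gene. A divergent neighbour, here the start site of another protein-coding gene on the opposite strand 0 to 500 bp upstream, was annotated for 53 of the 73 genes (72.6%), against 27.4% of all protein-coding genes. Among cytosolic ribosomal protein genes this was 34 of 86 (39.5%). The median length was 909 bp for the 73 genes and 2166 bp for all protein-coding genes. The neighbours were 53 different genes, none of them another member of the family.

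Peaks were more frequent at the genes with a divergent neighbour. Of these 53 genes 41 had an IDR summit (77.4%, Wilson 95% interval 64.5 to 86.5%), and the background is 59.4% of all genes with a divergent neighbour. Of the 20 genes without one 5 had an IDR summit (25.0%, 11.2 to 46.9%), against 18.9% of all genes without a divergent neighbour. The difference was 52.4 percentage points with a Newcombe interval of 27.0 to 68.9 for counting error. It had the same direction in the large subunit, with 25 of 34 against 4 of 13 genes, and in the small subunit, with 16 of 19 against 1 of 7 genes. It had the same direction among the 45 genes classed as having a bacterial counterpart, with 28 of 34 against 3 of 11. The 28 others had the same direction as well, with 13 of 19 against 2 of 9. Since the contrast is also present over all genes, it is not shown to be particular to this family. Cytosolic ribosomal protein genes carried peaks in both arrangements, 31 of 34 with (91.2%) and 46 of 52 without a divergent neighbour (88.5%).

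**Figure D2:**
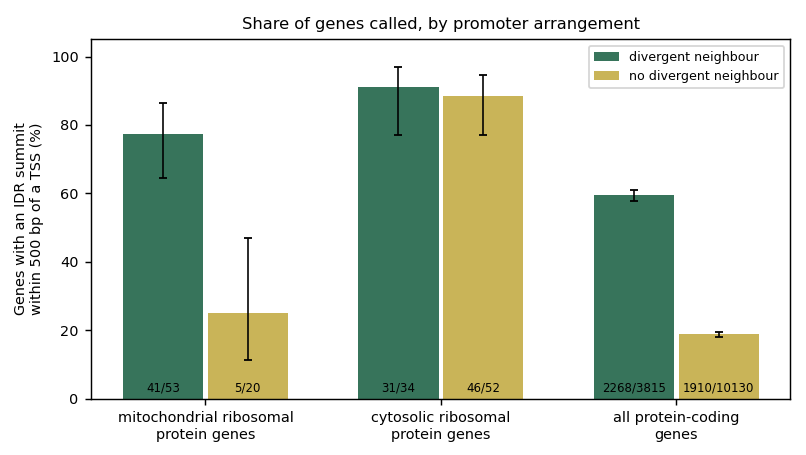
Percent of genes with an IDR summit at a start site (within 500 bp), for genes with (green) and without (yellow) a divergent neighbour in 3 gene sets, with Wilson 95% intervals as bars and counts at the foot. The mitochondrial ribosomal protein genes stand at 77.4% and 25.0%, whereas the cytosolic ones stand at 91.2% and 88.5%.

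The 5 genes with an IDR summit but no divergent neighbour were mRpL41 (1698), mRpL10 (596), mRpS29 (259), mRpL19 (246) and mRpL36 (167). mRpL41 and mRpL10 were described above, and their summits lay 147 and 100 bp upstream of their start sites. mRpL19 had 75.5 in replicate 2 and 169 in replicate 3, with its summit 144 bp upstream. The mRpS29 summit lay 349 bp upstream of its start site and nearest to that of rad50, a DNA repair gene, at 288 bp. The mRpL36 summit lay 259 bp downstream of the start site, in exon sequence. Of the 20 genes without a divergent neighbour, mRpL41 and mRpL10 were the 2 with a signal above 400, against 13 of the 53 with one.

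Peaks were present in every class of distance between the 2 start sites. With gaps of 0 to 100 bp, 13 of 18 genes had an IDR summit, against 57.1% of all genes with such gaps. With gaps over 100 and up to 200 bp all 4 genes did, against 46.3%, and with gaps over 200 and up to 300 bp 10 of 11 did, against 66.9%. With gaps over 300 and up to 400 bp 7 of 8 did, against 67.1%, and with gaps over 400 and up to 500 bp 7 of 12 did, against 54.3%. The classes are small, and the order among them is not resolved. From the shortest to the widest class, the median signals of the genes with a summit were 273, 339, 348, 398 and 478, while those of all genes with a summit were 283, 311, 392, 363 and 320.

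The summits lay upstream of these genes and, in wide gaps, near the middle between both start sites. The median position of the 46 summits was -137.5 bp relative to the nearest own TSS, where negative values are upstream, with quartiles at -182 and -81 bp, and 43 of 46 (93.5%) were upstream. For all genes with an IDR summit the median was -115 bp and 79.5% were upstream. Among genes with a divergent neighbour the median was -137 bp in the family, with 95.1% upstream. Over all such genes it was -127 bp, with 86.4% upstream. Cytosolic ribosomal protein genes had a median of -27 bp. Where the gap exceeded 200 bp, all 24 summits fell between the 2 start sites, against 83.4% for all genes with such gaps. In the middle of the gap, from 33.3 to 66.7% of its length, lay 17 of these 24 (70.8%), against 45.7% for all genes and 5 of 19 (26.3%) for cytosolic ribosomal protein genes. The pairs are counted from each gene over all genes, so most enter that background from both sides.

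The summit was often as close to the neighbour as to the ribosomal protein gene. Of the 41 summits at divergent genes 18 were nearest the gene's own TSS (43.9%) and 23 another gene's. Over all divergent genes 52.3% of the summits were nearer the gene's own start site than the neighbour's. Most pairs enter that set from both sides, so a shared summit counts as nearer for a gene and farther for its partner. That share is thus largely fixed by the counting and is no background for the 43.9%. At divergent cytosolic ribosomal protein genes all 31 summits were nearer their own start site than the neighbour's. The mRpS10 summit lay 146 bp from the mRpS10 start site and 111 bp from that of Art3, an arginine methyltransferase gene. The mRpL24 summit lay 137 bp from its own start site and 81 bp from that of betaggt-I, which encodes a subunit of a geranylgeranyl transferase. The mRpS2 summit lay 142 bp from its own and 80 bp from the start site of Mon1, a gene of endosome traffic. The mRpS23 summit was 404 bp from its own start site and 88 bp from that of CenG1A, an Arf GTPase regulator gene. Binding that concerns one gene of a pair and binding that concerns the other cannot be told apart by position, and no expression was measured.

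Some summits were far from the mitochondrial ribosomal protein gene. The 5 farthest were mRpS31 at 443 bp, mRpS23 at 404 bp, mRpS29 at 349 bp, mRpS17 at 341 bp and mRpL2 at 297 bp upstream. The mRpS31 summit was 14 bp from the start site of hzg, and that of mRpS17 was 95 bp from the start site of Nop60B, a pseudouridine synthase gene of the small nucleolar particles. The mRpL2 and FoxK start sites are 64 bp apart, and the summit lay on the FoxK side, 139 bp from the nearest FoxK start site, and not between the facing pair. Each of these is counted for the mitochondrial ribosomal protein gene by the 500 bp rule, although another start site was closer.

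**Figure D3:**
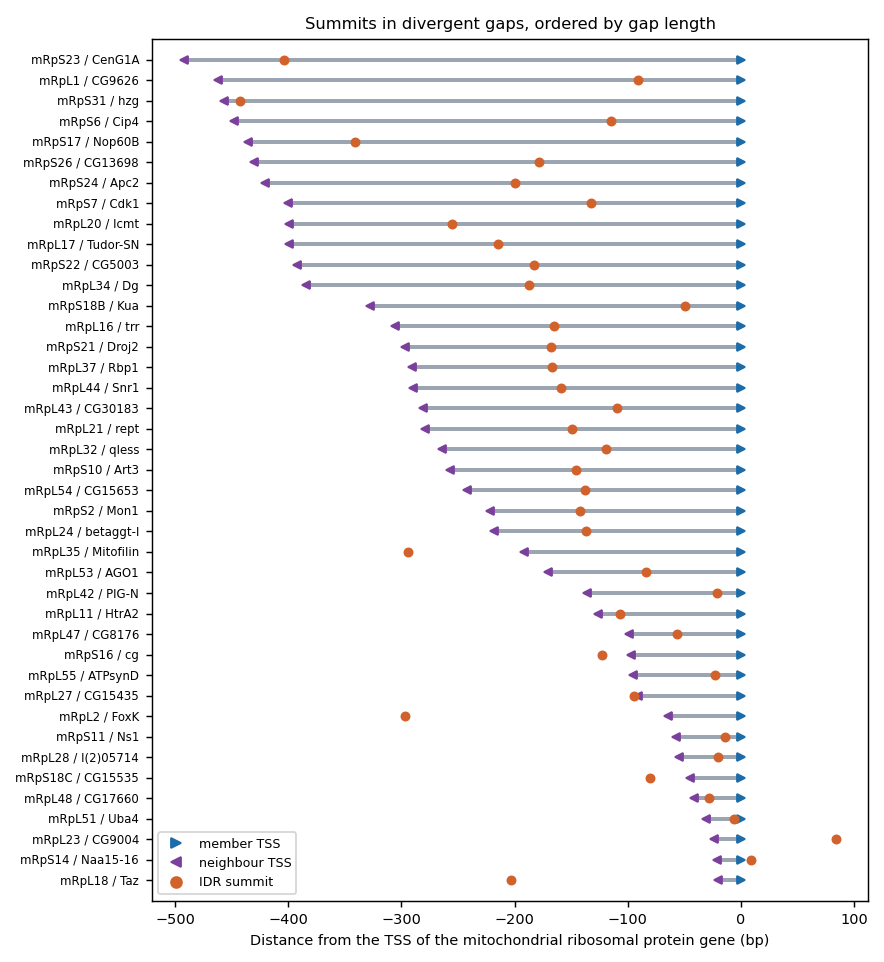
Position of the strongest IDR summit (orange) at the 41 genes with a summit and a divergent neighbour, in bp from the start site of the mitochondrial ribosomal protein gene (blue) that faces the neighbour, with the neighbour's start site in purple, ordered by gap length. All 24 summits in gaps over 200 bp lie between the 2 start sites, while in shorter gaps several lie outside, such as those of mRpL35, mRpL2, mRpL18 and mRpL23.

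**Figure D4:**
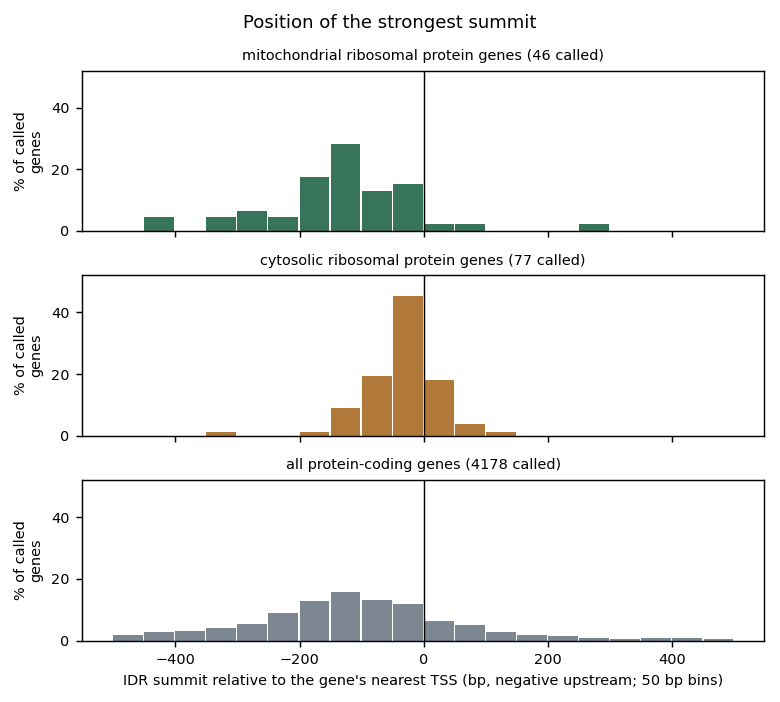
Position of the strongest IDR summit relative to the nearest own TSS, in 50 bp bins, as percent of genes with a summit in 3 gene sets, with negative values upstream. The mitochondrial ribosomal protein genes peak between -150 and -100 bp, and the cytosolic ones between -50 and 0 bp.

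The neighbours at these 41 promoters have varied roles, and those named here were chosen after their values were seen. mRpL55 shared its promoter with ATPsynD, which encodes a subunit of ATP synthase, and mRpL35 with Mitofilin, a gene of the cristae. mRpL11 faced HtrA2, a gene for a mitochondrial protease, and mRpL18 faced Taz, which encodes the cardiolipin remodelling enzyme tafazzin. Other pairs were mRpS7 with the mitotic kinase gene Cdk1, mRpL44 with the chromatin remodelling gene Snr1, mRpL53 with AGO1 and mRpL16 with the histone methyltransferase gene trr.

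On the X chromosome 2 of the 11 genes of the family had an IDR summit (18.2%, Wilson 95% interval 5.14 to 47.7%). The background of 30.1% of all genes on X lies within that interval. The 2 were mRpL16 (69.4 in replicate 2, 252 in replicate 3, 331 in the IDR list) and mRpS14 (78.6, 166 and 241). On the autosomes 44 of 62 genes had one (71.0%), against 29.9% of all autosomal genes. Among genes with a divergent neighbour the counts were 2 of 7 on X, against 55.1% of all such genes there, and 39 of 46 on the autosomes, against 60.2%. All 14 cytosolic ribosomal protein genes on X had an IDR summit. The 9 genes on X without a summit were mRpL3, mRpL14, mRpL22, mRpL30, mRpL33, mRpL38, mRpL49, mRpS25 and mRpS30, and their pooled signals, where present, reached 153. The split by chromosome was made after the data were seen, and the 11 genes are few.

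The sequence at the summits was poor in G and C. Within 50 bp on either side of the 46 summits the GC content was 33.2% ± 11.9 (SD over summits), against 36.3% ± 10.8 over all 2971 promoter summits and 44.3% ± 8.73 at 77 cytosolic ribosomal protein summits. A GC content under 30% was found at 24 of 46 (52.2%), against 33.0% of all promoter summits and 9.09% of the cytosolic ones. The 32 summits more than 50 bp from any TSS had a GC content of 29.7% ± 10.9 and a median signal of 391. The 14 within 50 bp of a TSS had 41.1% ± 10.5 and a median signal of 244. Over all promoter summits the same split gave 34.3% and a median signal of 315 beyond 50 bp, and 42.7% and 246 within 50 bp. The lowest GC content, 13.9%, was at mRpL44. The limits of 30% and 50 bp were set after the values were seen.

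Stronger summits tended to be poorer in GC, in the family as over all promoter summits. Across the 46 summits the Spearman correlation of GC content with signal was -0.50 and the Pearson correlation of GC content with log2 signal was -0.43. Over all promoter summits the Spearman value was -0.34, and over the cytosolic ribosomal protein summits it was 0.32. These correlations run across summits of the same pooled libraries and describe the lists. The 23 stronger summits had a mean GC content of 28.7% and the 23 weaker ones 37.7%.

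**Figure D5:**
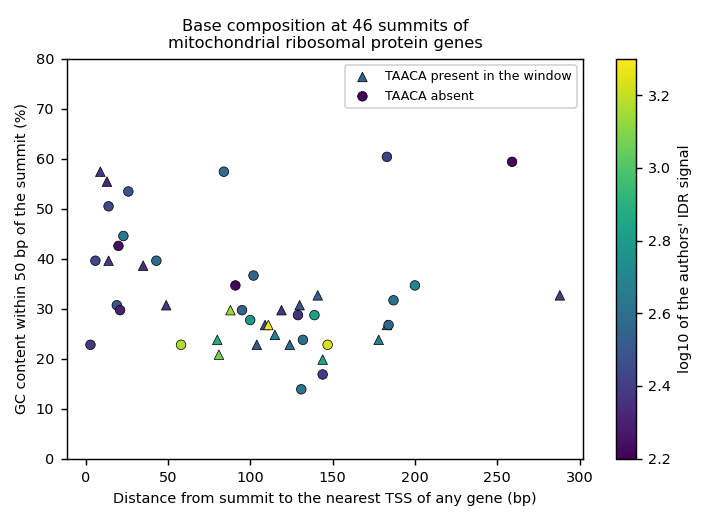
GC content within 50 bp of each of the 46 summits against the distance to the nearest TSS of any gene in bp, coloured by log10 of the IDR signal, with triangles where TAACA is present. The summits within 50 bp of a TSS are mostly richer in GC and darker (weaker), and the brightest points lie between 50 and 150 bp at a GC content of 20 to 30%.

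The letters TAACA, searched on both strands within 50 bp of the summit, were present at 20 of 46 summits (43.5%), against 26.6% of all promoter summits and 22.1% of cytosolic ribosomal protein summits. Within 100 bp of the summit they were present at 27 (58.7%), against 45.2% of all promoter summits. They were present at mRpS10, mRpS23, mRpL24, mRpS2 and mRpL20, as printed above, but not at mRpL41, mRpL23, mRpL2 or mRpL10. The motif was held by 9 of the 23 stronger and 11 of the 23 weaker summits. Among the promoters of the 73 genes, from 250 bp before to 50 bp after the start site, 54 held TAACA (74.0%), against 53.7% of all protein-coding genes. Its share was 37 of 46 promoters with an IDR summit (80.4%) and 17 of 27 without one (63.0%). TAATTA, the core site of many homeodomains, was present at 7 summits (15.2%), against 10.2% of all promoter summits. The 2 motifs are rich in A and T and can share end bases, and their counts move with base composition.

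Motifs of other promoter factors were present at few of the summits. GGTCACACT, the site of Motif 1 binding protein, was present at 3 summits (6.52%), against 1.95% of all promoter summits. Within 100 bp of the summit it was present at 3 as well, against 4.21%. The 3 matches within 50 bp were at mRpL48, mRpL55 and mRpS31, and 29 bases around each match are given on the sense strand of the gene, with the motif or its reverse complement in capitals. They are chr2L:1710432-1710460, plus strand, chr3R:19094884-19094912, minus strand, and chr3L:16004730-16004758, plus strand.
mRpL48 site: cgcttgagccAGTGTGACCatggagccgg
mRpL55 site: ccctcgggtcGGTCACACTatcagctgcc
mRpS31 site: acgtgtgattAGTGTGACCgcggtggatg
TATCGATA, the site of DREF, was present in 15 of the 73 promoters (20.5%), against 9.37% of all promoters, but at none of the 46 summits, against 3.53% of all promoter summits. Within 100 bp of the summit it was present at 4 (8.70%), against 7.51%. The shorter CGATA, bound by BEAF-32 and contained in TATCGATA, was present at 9 summits (19.6%), against 22.1%. TATAAA, the TATA box, was present at 8 (17.4%), against 20.4%. ACATGT, a palindrome bound by some homeodomains of the Iroquois kind, was present at none of the summits and in 1 of 73 promoters, against 2.12% of all promoter summits and 7.13% of all promoters. TGACAG was present at 2 summits (4.35%) and TGCGCA at 1 (2.17%), against 3.90% and 2.56%.

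Peaks were also present at part of the genes on lists drawn up for gene expression in mitochondria. The lists were set by symbol and may hold genes with other roles, such as mge and swa, neither with an IDR summit. mtTFB1 and mtTFB2 are counted both with the translation factors and with DNA maintenance. In a list of 5 symbols for mitochondrial ribosome genes named otherwise, 4 matched the annotation and only CG12848 (173) had an IDR summit, while tko, which encodes the small subunit protein of the decoding site, bonsai and CG6094 did not. Of 24 matched genes on the list of translation factors and ribosome assembly 12 had one. Within it, the 12 genes whose annotated product names mitochondria had 4 (33.3%), namely mEFTu1 (285) and mEFTu2 (199), for elongation factor Tu, mtTFB2 (223) and mRF1, a release factor (164). The 2 strongest on that list were CG14100 (3025) and CG13390 (1898), which the annotation calls uncharacterised. Of 15 genes for mitochondrial aminoacyl-tRNA synthetases 5 had an IDR summit (33.3%), led by ArgRS-m (423), CysRS-m (313), AlaRS-m (194) and PheRS-m (175). Of 21 matched genes of mitochondrial DNA maintenance, transcription and RNA handling 12 had one (57.1%), led by Lon, a matrix protease and DNA-binding protein (1593), mTerf5 (476), RNaseZ (403) and PNPase (385). The background of 30.0% is over all genes, of which 27.4% have a divergent neighbour. It was 59.4% for genes with a divergent neighbour and 18.9% for those without. A divergent neighbour was annotated for 75% of the otherwise named ribosome genes and 45.8% of the translation factor list. It was annotated for 46.7% of the synthetases and 66.7% of the DNA maintenance list, so 30.0% is not matched to these lists.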

How the data were processed

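Anti-GFP ChIP-seq peak lists of 1 group with 2 replicates were used. The authors deposited them on dm6 and dm3, and the dm3 lists were not used here. Per the deposited notes, each candidate list came from alignments and a control alignment, and the IDR list from both replicates. The tools used for alignment and peak calling were not given in the sources used here. Each entry's signal is the deposited peak score, which describes and ranks entries within a list. The deposited −log10 q values are capped at 1 highest value per list and were not used for ranking. The lists hold no counts, so depth is unknown.

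Gene models were Ensembl release 115 (BDGP6.54) and sequence was Release 6, whose arms hold every dm6 entry. Coordinates are counted from 1. For each gene the entry of highest signal with its summit within 500 bp of a TSS was taken. This was done in each list apart, so the entries of a gene in different lists can lie at different places. Shares carry Wilson intervals, and with 1 group no test was made. The assignment of peaks to genes, with its signed distance, was tested on planted peaks. The divergent-neighbour rule was tested against an exhaustive search, and the other steps were not tested in this way. Python 3.11.15, pandas 2.3.3, numpy 2.4.6, scipy 1.17.1 and matplotlib 3.10.9 were used.

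The genes, lists, motifs and alternatives were chosen with earlier results of these data known. Replicate values are given for the 12 genes of highest signal, the 4 highest of each subunit, the 4 highest without a divergent neighbour, the 4 highest without an IDR summit, those with no pooled entry, the 3 highest and the 3 lowest replicate ratios, the 2 genes on each side of the limit and the 4 genes mRpS30, mRpS18A, mRpL10 and mRpL12. Summits over 200 bp from the own start site are named for up to 5 genes, and each other list by its 4 highest. Other genes were named for their role or their neighbour with the values known. Alternatives changed the window, the TSS, the peak set, the gap limit and the subunit of 2 genes, or left out a replicate by taking the 5777 strongest entries of the other. An alternative without X was added after the data were seen.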

Additional observations from a re-analysis of the deposited data

How the results depend on the processing

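The count of 46 genes with an IDR summit ranged from 31 to 51 over 8 alternatives, and the median summit position stayed between -146 and -103.5 bp over 7. The sign of the large minus small difference (-3.68 percentage points) was not stable. It was 3.6 with a 250 bp window, 0.57 with 1000 bp, 0.25 with the 2888 strongest IDR entries, 9.17 when an entry had to cover the TSS and 2.23 without X, and -15.6 to 6.96 when 1 replicate was left out. Genes without a divergent neighbour that had a summit numbered 5, and 3 with a 250 bp window, 2 with the 2888 strongest, 26 of 48 with a gap limit of 250 bp and 3 of 15 with 1000 bp. Those with a neighbour numbered 41, and 20 of 25 with a gap limit of 250 bp, which took the difference of 52.4 percentage points to 25.8 by moving the genes with wider gaps to the other class. Its other 10 alternatives gave 38.6 to 56.7. Small subunit genes with a summit numbered 17, and 11 with the 2888 strongest. On the replicates' own scales, median signals ran from 91.3 to 230 for large and 108 to 218 for small subunit genes when 1 replicate was left out. No paired analysis was possible because the series holds 1 group. The lists give no read counts, so what depth limits could not be measured.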

Other observations

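At some loci a mitochondrial ribosomal protein gene begins inside another gene. The annotated start site of mRpL53 lies within AGO1 and CG33155, and that of mRpS14 within Naa15-16, and both had an IDR summit (384 and 241). The start site of mRpL13 lies within CG10602, and mRpL13 had no IDR summit and a pooled signal of 61.3. At 10 of the 46 genes the window held more than 1 IDR entry, of which the strongest was used, and at the other 36 it held 1.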
